A study of Mus musculus with 12 samples.

Results

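The 10 genes followed here act in the repair of oxidised DNA bases: Ogg1, Mutyh, Neil1, Neil2, Nthl1, Apex1, Xrcc1, Polb, Lig3 and Parp1. A gene was measured where a probe set of the array named it and no other gene, and 9 of the 10 had such a probe set, 1 each, among 30063 genes in all. The probe set that names Parp1 also names a microRNA gene, so Parp1 was not analysed here. All 9 lay above the filter on dim genes (a mean log2 signal over the 12 arrays above 3.93) and were tested among 19985 genes. No member of the 9 passed the test in any comparison between groups, and their differences between groups ran from -0.33 to 0.28 on the log2 scale.

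All 12 mice, controls included, were C57BL/6J -Oca2p-un/J animals aged 3 months, and so share the Oca2 allele of that strain. In 1 group of 4 mice, 20 nm silver particles with a citrate coat (cit-AgNP) were gavaged once a day for 7 days, each dose holding 4 mg Ag per kg; in another, particles with a polyvinylpyrrolidone coat (PVP-AgNP) were given in the same way, and the 4 control mice received water. Each group held 2 females and 2 males, and the livers were taken 24 h after the last dose. The comparisons asked whether either coating changed hepatic expression, here of the enzymes that remove oxidised bases. The labels do not say whether the mice of a group shared a litter or a cage.

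In base excision repair, a DNA glycosylase recognises a damaged base and cuts it from the sugar, an endonuclease or the glycosylase itself opens the strand at the empty site, and a polymerase and a ligase fill and seal the gap. Guanine is the base most readily oxidised, and its product 8-oxoguanine pairs with adenine as well as with cytosine. The liver has a high oxidative metabolism, and silver particles are widely studied as a source of oxidative stress. The enzymes are regulated to a large degree as proteins, by location and modification, which an array of RNA does not measure.

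How well exon controls stood out from intron controls on an array was read from an area under the curve, where 1 is full separation. This exon over intron area was 0.824 ± 0.016 in control livers, 0.82 ± 0.00624 with citrate and 0.802 ± 0.0198 with PVP (mean ± SD, n = 4 each). The lowest values were 0.778 in PVP replicate 1 and 0.794 in PVP replicate 4. The liver label was borne out by the 8 hepatocyte markers, of which 4, albumin (Alb) and transthyretin (Ttr) among them, stood at the ceiling of the scale on all arrays. All 9 members lay above the median of the antigenomic background probes on all 12 arrays, and 0 of the 9 lay above the 95th percentile of the intron controls on any. The mean of Apex1 lay above 93.0% of the intron controls, that of Polb above 93.5% and that of Lig3 above 91.1%. Ogg1, Neil1, Apex1, Xrcc1, Polb and Lig3 lay above the median intron control on all 12, Nthl1 on 1, and Mutyh and Neil2 on 0. Introns of expressed genes can themselves give signal, so this sets a bound on how specific the dim values are and does not show that these RNAs were missing. Of the markers of other liver cells 0 passed in limma in the comparisons between groups, although the medians of some lists lay away from 0. The 6 tested T, B and NK cell markers had medians of 0.00 with citrate and 0.05 with PVP. Those of the 4 tested cholangiocyte markers were -0.05 and 0.03. The 8 Kupffer cell and macrophage markers had a median log2 fold change of 0.43 with either coating, and the 6 tested neutrophil and monocyte markers 0.44 with citrate and 0.39 with PVP. The 8 stellate cell markers had medians of -0.22 with citrate and -0.32 with PVP, and the 8 sinusoidal endothelial markers 0.11 and -0.33. With PVP against control 2 stellate markers and 1 endothelial marker were lower without overlap, as were 4.92% of all genes tested. In PVP against citrate 2 of each list were, as were 4.84% of all genes tested. The 5 tested markers of cycling cells had -0.03 with citrate and 0.15 with PVP, where all 5 lay above 0, as did 9843 of 19985 genes tested. In PVP against citrate 3 of the 5 (Mki67, Top2a and Cdk1) were higher without overlap, as were 2.36% of all genes tested. These markers were dim, with group means from 4.35 (Cdk1, citrate) to 5.34 (Mki67, PVP). Their values were not taken with arrays brought to the same distribution or centred on their medians. Birc5 and Bub1 lay below the filter. The log2 of the summed Kupffer signal ran from 11.64 to 12.68 in control livers, 11.65 to 13.37 with citrate and 12.01 to 14.53 with PVP, and that of the stellate markers from 12.39 to 13.22, 12.02 to 12.73 and 11.72 to 12.94. The part of these cells in the values below was not tested. In whole liver, fewer cells of a type and less RNA per cell cannot be told apart.

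The sequences just before the starts of 3 members are shown because Ogg1 is the main 8-oxoguanine glycosylase, and because Apex1 and Nthl1 each share a short stretch with a neighbour that starts on the other strand. All are RefSeq sequences of GRCm38.p6, on the plus strand, written 5′ to 3′. For Ogg1 the 246 bases before the gene are given (chr6:113326726-113326971), for Apex1 the 55 bases that part it from the start of Osgep (chr14:50924894-50924948), and for Nthl1 the 52 bases that part it from a start of Tsc2 (chr17:24632628-24632679), whose annotated span reaches into that stretch. Capitals mark matches, on either strand, to the GC box GGGCGG, the CCAAT box, the E-box CACGTG, the antioxidant response element core TGACNNNGC, or the metal response element core TGCGCNC or TGCACNC.
Ogg1: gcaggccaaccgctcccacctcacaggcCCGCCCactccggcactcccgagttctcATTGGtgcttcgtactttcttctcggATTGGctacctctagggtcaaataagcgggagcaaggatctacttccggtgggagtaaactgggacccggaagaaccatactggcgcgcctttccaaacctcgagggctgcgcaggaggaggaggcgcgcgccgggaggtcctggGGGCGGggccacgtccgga
Apex1: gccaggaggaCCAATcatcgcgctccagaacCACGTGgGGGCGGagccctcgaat
Nthl1: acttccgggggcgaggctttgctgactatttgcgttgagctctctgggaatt
The Ogg1 stretch held GC boxes and CCAAT boxes, the Apex1 stretch 1 match each to the GC box, CCAAT box and E-box, and the Nthl1 stretch no match to these letters. Promoter windows from 250 bases before a start to 50 after it were at hand for 8 of the 10 genes, Parp1 included, as 9 windows, with Polb and Neil2 not analysed here. The GC box was found in 6 of these 9 windows, against 35.7% of all 32851 windows of the same length, and the CCAAT box in 6 of 9, against 37.4%. The E-box was found in 3 of 9, against 7.15% of all windows. The antioxidant response element core, the letters that the stress factor NRF2 is known to bind, was found in the Neil1 window alone, against 12.4% of all windows. The metal response element core, the letters known for the metal sensor MTF1, was found as TGCGCNC in 3 windows (Mutyh, Lig3 and Nthl1) and as TGCACNC in 2 (Parp1 and Nthl1), against 15.4% and 12.6% of all windows. These are matches of letters and do not show binding.

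Positions of genes are those of RefSeq GRCm38.p6, each spanning the whole protein-coding gene. Among the glycosylases, Ogg1, which removes 8-oxoguanine opposite cytosine (chr6:113326972-113334877), had log2 signals of 6.27, 6.02, 5.87 and 5.97 in control replicates 1 to 4. They were 5.76, 5.69, 5.94 and 5.99 in citrate replicates 1 to 4 and 5.95, 5.83, 5.94 and 6.07 in PVP replicates 1 to 4. The citrate-treated females, replicates 1 and 2, were the lowest of the 12 livers, while the citrate-treated males lay within the control range, so the groups overlapped. The log2 fold change of Ogg1 was -0.19 with citrate (SE 0.09, 95% interval -0.38 to 0.00, limma adjusted p = 0.775) and -0.08 with PVP (SE 0.09, interval -0.28 to 0.11, limma adjusted p = 0.592).

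Nthl1, which removes oxidised pyrimidines such as thymine glycol (chr17:24632680-24638838), had log2 signals of 4.56, 4.56, 4.59 and 4.47 in control livers. They were 4.66, 4.70, 4.74 and 4.78 with citrate and 4.61, 4.69, 4.81 and 4.68 with PVP. Every exposed liver of either coating lay above every control liver, although the lowest PVP value, 4.61, was close to the highest control value, 4.59. Nthl1 was the member with the smallest p in the citrate comparison, with a log2 fold change of 0.17 (SE 0.05, interval 0.06 to 0.29, a ratio of 1.13), but it did not pass over all genes tested (limma adjusted p = 0.51). With PVP the value was 0.15 (SE 0.05, interval 0.03 to 0.26, limma adjusted p = 0.184). Both comparisons use the same 4 control livers. With all arrays brought to the same distribution (quantile normalization) the PVP value was 0.04 (limma adjusted p = 0.785), and with arrays centred on their medians 0.05 (limma adjusted p = 0.729), while the citrate values were 0.16 and 0.15.

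Neil2, a glycosylase of oxidised bases that acts well in single-stranded stretches and bubbles (chr14:63182439-63194154), had log2 signals of 4.25, 4.17, 4.02 and 3.92 in control livers. They were 4.21, 4.08, 4.36 and 4.26 with citrate and 4.52, 4.45, 4.21 and 4.30 with PVP. The PVP-treated females were the highest of the 12, and of the PVP-treated males 1 lay above every control and 1 within the control range, so the groups overlapped. Its log2 fold change was 0.28 with PVP (SE 0.10, interval 0.06 to 0.50, limma adjusted p = 0.185), and 0.14 with citrate (SE 0.10, interval -0.09 to 0.36, limma adjusted p = 0.942). The PVP value was 0.18 with quantile normalization and 0.18 with median centring. Neil2 lay below the median intron control and above the median of the antigenomic background probes on all 12 arrays.

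Neil1, which removes ring-opened purines and oxidised pyrimidines (chr9:57142788-57148688), had log2 signals of 5.16, 5.08, 5.20 and 5.38 in control livers. With citrate they were 5.08, 5.30, 5.21 and 5.33, and with PVP 5.01, 5.19, 5.05 and 5.09. PVP replicates 1 and 3 lay below every control, and the other PVP values lay in the control range. Its log2 fold changes were 0.03 with citrate (SE 0.08, interval -0.16 to 0.21, limma adjusted p = 1) and -0.12 with PVP (SE 0.08, interval -0.30 to 0.06, limma adjusted p = 0.411). Mutyh, which removes adenine placed opposite 8-oxoguanine (chr4:116807636-116819439), stood at 4.10 ± 0.06 in control livers, 4.07 ± 0.04 with citrate and 4.12 ± 0.09 with PVP (log2, mean ± SD, n = 4 each). Its range was 4.06 to 4.18 in control livers, 4.00 to 4.10 with citrate and 4.00 to 4.22 with PVP, so the 3 groups lay over each other. The log2 fold changes of Mutyh were -0.04 and 0.01, with intervals of -0.17 to 0.10 and -0.12 to 0.15, and the sign of the PVP value turned to -0.08 with quantile normalization and -0.08 with median centring.

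**Figure D1:**
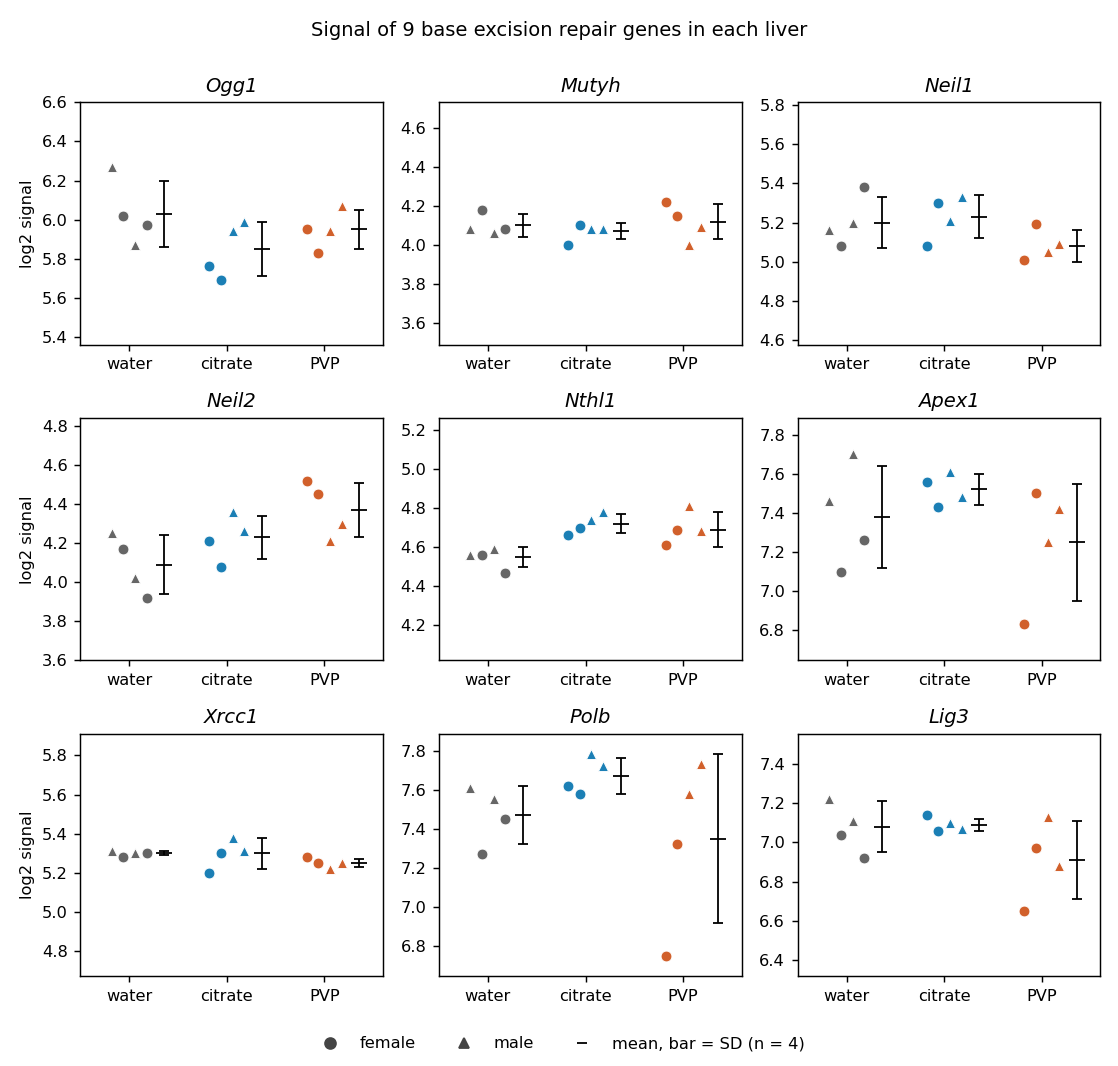
Log2 signal (vertical axis) of each of the 9 genes in each of the 12 livers, by group; circles are females, triangles males, and the black mark with its bar is the mean ± SD of 4 livers. All panels span the same height in log2 units. For Nthl1 all exposed livers lie above the controls, and for Apex1, Polb and Lig3 the lowest point is PVP replicate 1.

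Downstream of the glycosylases, Apex1, the main endonuclease at sites that have lost their base (chr14:50924949-50927188), had log2 signals of 7.46, 7.10, 7.70 and 7.26 in control livers. They were 7.56, 7.43, 7.61 and 7.48 with citrate and 6.83, 7.50, 7.25 and 7.42 with PVP. The control livers alone spanned more than the citrate-treated ones, whose values all lay inside the control range, and PVP replicate 1 was the lowest of the 12. The log2 fold changes were 0.14 with citrate (SE 0.14, interval -0.18 to 0.46, limma adjusted p = 0.991) and -0.13 with PVP (SE 0.14, interval -0.45 to 0.19, limma adjusted p = 0.609).

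Polb, the polymerase that fills a gap of a single nucleotide and trims the sugar left behind (chr8:22628119-22653464), had log2 signals of 7.61, 7.27, 7.55 and 7.45 in control livers. They were 7.62, 7.58, 7.78 and 7.72 with citrate and 6.75, 7.32, 7.58 and 7.73 with PVP. The citrate values lay in the upper part of the control range or above it, and the PVP values ran from the lowest of the 12 livers to near the highest. The log2 fold changes were 0.20 with citrate (SE 0.14, interval -0.10 to 0.51, limma adjusted p = 0.918) and -0.13 with PVP (SE 0.14, interval -0.43 to 0.18, limma adjusted p = 0.615). Without PVP replicate 1 the PVP value was 0.04 (limma adjusted p = 0.865).

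Lig3, the ligase that seals the nick and also serves mitochondria (chr11:82781109-82804274), had log2 signals of 7.22, 7.04, 7.11 and 6.92 in control livers. They were 7.14, 7.06, 7.10 and 7.07 with citrate and 6.65, 6.97, 7.13 and 6.88 with PVP. PVP replicates 1 and 4 were the lowest of the 12 livers and the others fell in the control range. The log2 fold changes were 0.02 with citrate (SE 0.10, interval -0.20 to 0.23, limma adjusted p = 1) and -0.17 with PVP (SE 0.10, interval -0.38 to 0.04, limma adjusted p = 0.333). Without PVP replicate 1 the latter was -0.09.

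Xrcc1, the scaffold that brings polymerase and ligase to the break (chr7:24546699-24573438), varied least among the control livers, at 5.30 ± 0.01, against 5.30 ± 0.08 with citrate and 5.25 ± 0.02 with PVP (log2, mean ± SD, n = 4 each). Its control values were 5.31, 5.28, 5.30 and 5.30 and its PVP values 5.28, 5.25, 5.22 and 5.25. All PVP-treated livers lay below all control livers, but by so little that the values next to each other both round to 5.28. The log2 fold change with PVP was -0.05 (SE 0.05, interval -0.16 to 0.06, limma adjusted p = 0.593), and with citrate it was 0.00 (SE 0.05, interval -0.11 to 0.12, limma adjusted p = 1).

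Counted together, 0 of 9 members passed an adjusted p of 0.05 with citrate, where 0.005% of all genes tested did, and 0 of 9 with PVP, where 0.04% did (limma, both directions). At an unadjusted p under 0.05 there was 1 member with citrate (Nthl1, higher), against 6.57% of all genes, with 2.75% higher and 3.82% lower. With PVP there were 2 (Nthl1 and Neil2, both higher), against 20.3% of all genes, with 8.05% higher and 12.2% lower. With quantile normalization or median centring 0 members had such a p with PVP. The groups did not overlap for 1 member with citrate, Nthl1, against 1.93% of all genes that were higher throughout and 2.37% lower. With PVP they did not overlap for Nthl1, higher, against 2.98%, and for Xrcc1, lower, against 4.92%. The median log2 fold change of the members was 0.03 with citrate, with 7 of 9 above 0, and -0.08 with PVP, with 3 of 9 above 0; over all genes tested both medians were 0.00. In the citrate comparison the widest interval was that of Apex1, -0.18 to 0.46, while that of Xrcc1 was -0.11 to 0.12.

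**Figure D2:**
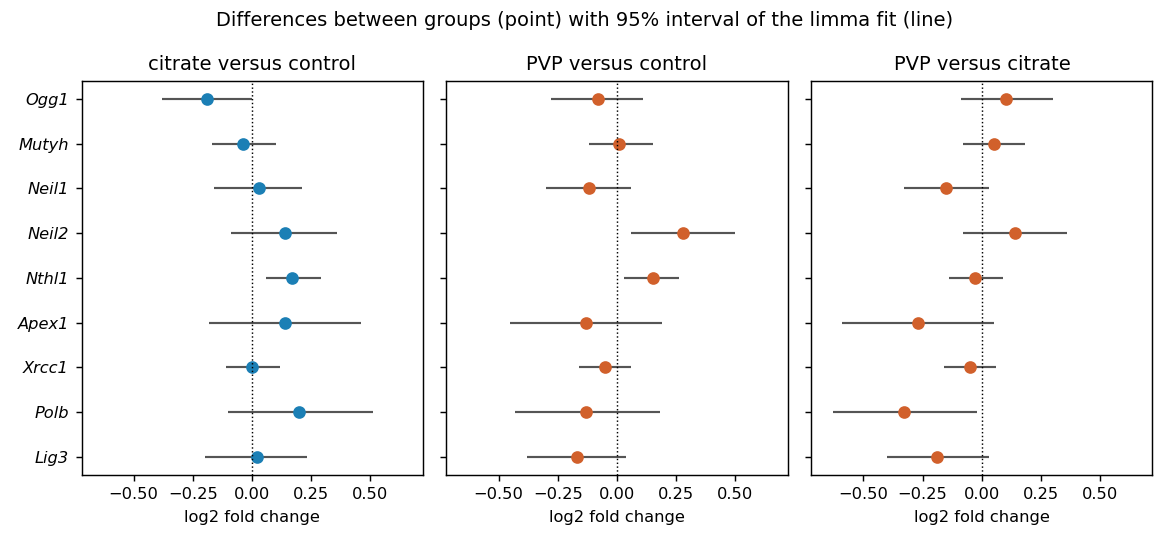
Log2 fold change (horizontal axis) of each gene in the 3 comparisons between groups, with the 95% interval of the fit as a line; the dotted line marks no difference. The intervals of Nthl1 lie above 0 against control with both coatings, that of Neil2 with PVP, and that of Polb below 0 in PVP against citrate, all without adjustment for the genes tested.

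The comparison of both coatings with each other asked whether the coat itself mattered. Here 0 of 9 members passed (limma adjusted p), as did 0% of all genes tested, and 1 member had an unadjusted p under 0.05, against 14% of all genes, with 5.29% higher and 8.72% lower. That member was Polb, at -0.33 in PVP-treated against citrate-treated livers (SE 0.14, interval -0.63 to -0.02, limma adjusted p = 0.346). Without PVP replicate 1 it was -0.17 (limma adjusted p = 0.588). Apex1 had -0.27 (SE 0.14, interval -0.59 to 0.05, limma adjusted p = 0.414) and Lig3 -0.19 (SE 0.10, interval -0.40 to 0.03, limma adjusted p = 0.403). Without PVP replicate 1 these were -0.15 and -0.11. Neil1 stood at -0.15, Xrcc1 at -0.05 and Nthl1 at -0.03, while Neil2 had 0.14, Ogg1 0.10 and Mutyh 0.05. No member had groups that were apart, against 2.36% of all genes higher and 4.84% lower.

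Between the sexes, 0 of 9 members passed, where 2.18% of all genes tested did (limma adjusted p). Polb had -0.33 in females against males (SE 0.11, interval -0.58 to -0.08, limma adjusted p = 0.192), the only member with an unadjusted p under 0.05, against 15.3% of all genes, with 6.36% higher and 8.93% lower. The sexes overlapped for all 9 members, against 0.906% of all genes that were higher throughout in females and 1.38% lower. Apex1 had -0.21 (SE 0.12, limma adjusted p = 0.452) and Ogg1 -0.14 (SE 0.07, limma adjusted p = 0.374). In females the Kupffer cell and macrophage markers had a median of 0.72 against males, with 8 of 8 above 0. The neutrophil and monocyte markers had 0.89, with 6 of 6 above 0. Of all 19985 genes tested 8532 lay above 0. The part of these cells in the values of the members was not tested. The response to either coating was also compared between the sexes, from 2 mice per sex and group, and 0 of 9 members passed for citrate or for PVP, as did 0% of all genes (limma adjusted p); unadjusted, 0 members passed 0.05, against 2.45% of all genes for citrate (0.876% higher in females, 1.57% lower) and 3.62% for PVP (1.71% higher, 1.91% lower). Ogg1 differed from controls by -0.27 in citrate-treated females and by -0.10 in males, and the difference of -0.17 between the sexes had an interval of -0.59 to 0.25. Neil2 differed from controls by 0.44 in PVP-treated females and by 0.12 in males, a difference of 0.32 with an interval of -0.07 to 0.71 (limma adjusted p = 1). Polb differed by -0.32 in PVP-treated females and by 0.07 in males, a difference of -0.39 with an interval of -0.98 to 0.19 (limma adjusted p = 1). Lig3 differed by 0.12 in citrate-treated females and by -0.08 in males, a difference of 0.20 with an interval of -0.25 to 0.65 (limma adjusted p = 1). The largest such difference with citrate was that of Apex1, 0.35 with an interval of -0.33 to 1.03. Apex1 differed from controls by 0.31 in citrate-treated females and by -0.04 in males.

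PVP replicate 1, a female, had the lowest exon over intron area (0.778) and was also the lowest liver for Apex1 (6.83), Polb (6.75), Lig3 (6.65) and Neil1 (5.01), and the highest for Neil2 (4.52) and Mutyh (4.22). Its median log2 signal over the array was also the highest, at 4.401, with 4.28 in PVP replicate 4 and 4.131 to 4.214 on the other arrays. With the area as a covariate the PVP value of Apex1 was 0.04 in place of -0.13, that of Polb 0.06 in place of -0.13, that of Lig3 -0.07 in place of -0.17 and that of Neil2 0.18 in place of 0.28. Nthl1 had 0.16 in that fit and 0.20 without the 2 arrays of lowest area, against 0.15 with all arrays. Neil1 had -0.03 in place of -0.12 in the fit with the area. The 2 lowest areas, 0.778 and 0.794, were both of PVP livers. Array quality and coating can therefore not be told apart here, and the part of quality in the PVP values was not tested.

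**Figure D3:**
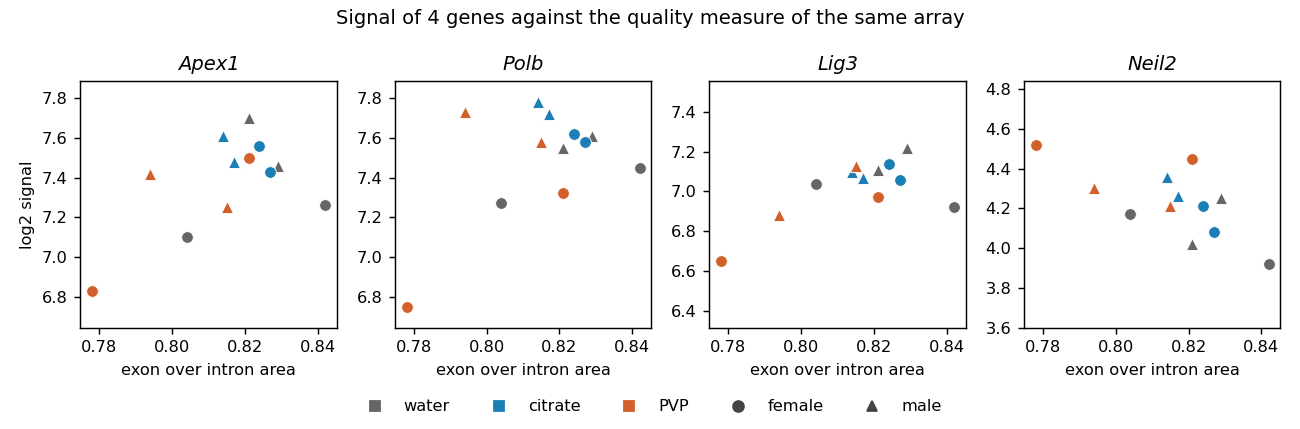
Log2 signal (vertical axis) of Apex1, Polb, Lig3 and Neil2 on each of the 12 arrays against the exon over intron area of the same array (horizontal axis, no unit); colours give the group, circles are females and triangles males. The array at 0.778, PVP replicate 1, has the lowest Apex1, Polb and Lig3 and the highest Neil2.

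The other genes of the pathway were followed in 4 lists, and 0 of the tested genes of these lists passed in limma in any comparison between groups. Unadjusted, 2 of their 38 genes tested had a p under 0.05 with citrate, 1 in each direction, or 5.26% against 6.57% of all genes. With PVP 1 was higher and 3 lower, together 10.5% against 20.3% of all genes, and in PVP against citrate 3 were lower, 7.89% against 14% of all genes. Of 6 other glycosylases 4 were tested, and their medians were 0.06 with citrate and 0.06 with PVP. Ung, which removes uracil, was the nearest to the threshold: it had 0.11 with citrate and 0.16 with PVP (SE 0.06, limma adjusted p = 0.201). Its log2 signals were 4.50 to 4.63 in control livers and 4.64 to 4.82 with PVP. These groups did not overlap, against 2.98% of all genes that were higher throughout with PVP, but the values 4.63 and 4.64 were close. The PVP value of Ung was not taken with quantile normalization or median centring, which lowered that of Nthl1. Mbd4, a thymine glycosylase at methylated sites, had 0.06 with citrate and -0.06 in PVP against citrate, and Smug1, another uracil glycosylase, 0.08 with PVP. Between the sexes, Mpg, which removes alkylated bases, had 0.08 and Ung -0.04 (limma adjusted p = 0.653 and 0.745).

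Of the 14 genes of end processing and gap filling 12 were tested, with medians of 0.00 with citrate and -0.10 with PVP, where 10 of the 12 lay below 0, as did 50.5% of all genes tested. Over all genes tested the median with PVP was 0.00 in this fit. It was -0.10 with arrays centred on their medians, where the median of this list was not taken. Tdp2, which frees DNA ends from trapped topoisomerase, had log2 signals of 7.49, 7.43, 7.54 and 7.56 in control livers. They were 7.31, 7.34, 7.29 and 7.12 with citrate and 7.38, 7.18, 7.27 and 7.25 with PVP. All exposed livers lay below all controls, against 2.37% of all genes that were lower throughout with citrate and 4.92% with PVP. The log2 fold change of Tdp2 was -0.24 with either coating (SE 0.08 each, limma adjusted p = 0.547 and 0.171). Tdp1, which clears other blocked ends, had -0.14 with PVP (limma adjusted p = 0.261) and -0.23 against citrate (SE 0.07, limma adjusted p = 0.264). Xrcc5, a subunit of the Ku end-binding complex, had -0.40 in PVP against citrate (SE 0.18, limma adjusted p = 0.352). Apex2, a relative of Apex1, had 0.19 with citrate (limma adjusted p = 0.786) and -0.31 in females against males (SE 0.07, limma adjusted p = 0.0613), and Poll, a gap-filling polymerase, -0.13 between the sexes.

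All 16 genes of long-patch repair, the branch that replaces several nucleotides with replication factors, were tested, with medians of 0.00 with citrate and -0.06 with PVP. Rfc4, a subunit of the clamp loader, had log2 signals of 5.66, 5.48, 5.55 and 5.98 in control livers and 5.07, 5.38, 5.29 and 5.27 with PVP. These groups did not overlap, against 4.92% of all genes that were lower throughout with PVP. The log2 fold change of Rfc4 was -0.42 with PVP (SE 0.12, limma adjusted p = 0.138) and -0.20 with citrate (limma adjusted p = 0.878). Pold2, a subunit of a replicative polymerase, had -0.26 with PVP and -0.23 against citrate (limma adjusted p = 0.223 and 0.382). Pole4, a small subunit of another, had 0.19 with citrate and -0.25 in PVP against citrate (SE 0.08 each, limma adjusted p = 0.717 and 0.272). Its PVP values of 6.95 to 7.07 lay below its citrate values of 7.18 to 7.34, against 4.84% of all genes that were lower throughout. Between the sexes, Pold4 had 0.14 and Lig1, the replicative ligase, 0.09 (limma adjusted p = 0.502 and 0.479).

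Of 7 genes that clean damaged or stray nucleotides from the precursor pool 6 were tested, with medians of -0.01 with citrate and -0.02 with PVP. Nudt18, which degrades oxidised nucleotides, had 0.17 with PVP and 0.19 against citrate (limma adjusted p = 0.321 and 0.389). Nudt5, a hydrolase of nucleotide sugars, had -0.19 and -0.17 (limma adjusted p = 0.337 and 0.49). Itpa, which removes inosine triphosphate, had 0.10 with citrate (limma adjusted p = 0.98). Samhd1, which breaks down deoxynucleotides, had -0.09 with citrate and 0.60 in females against males (SE 0.22, limma adjusted p = 0.229). Nudt1, the hydrolase of oxidised guanine nucleotides, had -0.12 between the sexes and -0.01 and -0.07 with citrate and PVP.

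**Figure D4:**
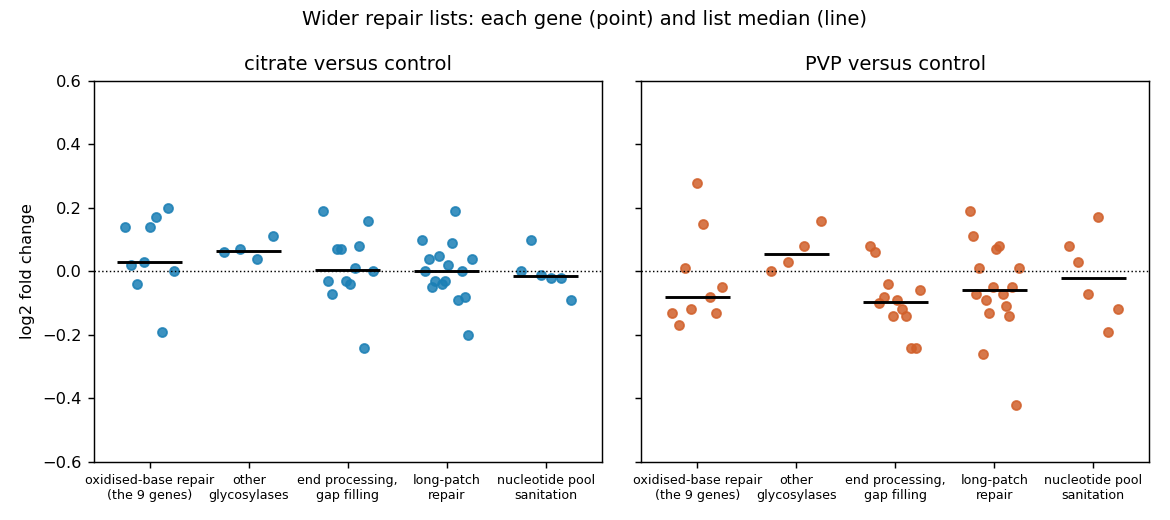
Log2 fold change (vertical axis) of each tested gene of the 9 members and of the 4 wider lists, for citrate (left) and PVP (right) against control; the black line is the median of a list and the dotted line marks no difference. The members run from -0.19 to 0.20 with citrate and from -0.17 to 0.28 with PVP, and the lowest point with PVP is Rfc4 at -0.42.

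A start on the opposite strand within 1000 bases before their own was found for 4 of the 8 genes with a promoter entry, against 8.48% of 17491 protein-coding genes of the same table. They were Nthl1 with Tsc2 (55 bases apart), Apex1 with Osgep (56 bases), Mutyh with Toe1 (175 bases) and Xrcc1 with Pinlyp (694 bases). Tsc2, which restrains the growth kinase mTOR, had log2 signals of 8.03 ± 0.16 in control livers, 7.85 ± 0.04 with citrate and 7.64 ± 0.20 with PVP (mean ± SD, n = 4 each). Its log2 fold change with PVP was -0.39 (SE 0.12, limma adjusted p = 0.152), while Nthl1, across the stretch printed above, had 0.15. Osgep had 0.08 with citrate and -0.02 with PVP, and Toe1 0.10 and 0.07, none of which passed (limma adjusted p of 0.524 to 0.986). Pinlyp was below the filter.

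Over the 12 arrays, with the mean of each sex removed, the genes whose pattern was most like that of Nthl1 were Cyp7b1 (Pearson r = 0.89), Mafa (0.88) and Chid1 (0.87). For Neil2 they were Mir5108 (0.95), Ripply1 (0.94) and Fhad1 (0.94), and for Polb they were Borcs7, Krit1 and Fam222b (0.94 each). These are the highest values among the 19985 genes tested once predicted genes and those without a RefSeq name were left out. They are a description and were not taken again without PVP replicate 1. Among the 36 pairs of members, the highest Pearson r was 0.75 for Apex1 with Polb (Spearman rho 0.57), which was 0.49 over the 11 arrays without PVP replicate 1. That of Polb with Lig3 was 0.66 and fell to 0.17 without it. The lowest was -0.69 for Mutyh with Polb, -0.54 without that array, while that of Ogg1 with Nthl1 was -0.62, and -0.63 without it.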

How the data were processed

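RNA of 12 livers, 1 array per mouse, was labelled by an Affymetrix whole-transcript procedure, per the labels' protocols, and measured on arrays. The authors deposited log2 signals; per the submitters' processing notes, RMA and Transcriptome Analysis Console 4.0.1.36 were used, without their roles or order, and the genome build is not given in the sources used here. The table held 72688 probe sets, of which 30604 named 1 gene; a gene with several was represented by its brightest on average, and 1135 symbols were updated from RefSeq (GRCm38.p6). The members and lists were chosen with earlier results of these data known. The test was limma 3.58.1, run in R 4.3.3 on genes whose mean exceeded the 40th percentile over probe sets (group and sex, trend along the mean; 6 means of group by sex for the response by sex), two-sided, with Benjamini-Hochberg adjustment over all genes and a threshold of 0.05. Intervals are 95% intervals of the fit, without adjustment for the genes tested. The code was tested on simulated data. All 9 members are named, with the 2 genes of smallest p per wider list and comparison, and the 3 most alike genes (Pearson r) for the 3 members of smallest p, without predicted genes; Tsc2, Osgep, Toe1, Pinlyp, Nudt1 in the coating comparisons and the response of single members by sex were added afterwards. The number of arrays limits the precision. The p-values set a difference against the spread between these mice, estimated from all groups together and adjusted by the trend over all genes tested. The highest correlation between arrays was 0.996, and no pair was treated as a duplicate.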

Additional observations from a re-analysis of the deposited data

How the results depend on the processing

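Under 13 other settings and with each of the 12 arrays left out, 0 members passed the threshold in any comparison of citrate with control, PVP with control or PVP with citrate, and the same held between the sexes and for the response by sex under the settings that could be run (limma; lowest adjusted p 0.0709). Most of the 345 fold changes under other settings came from settings that cannot move a member's fold change in this balanced design. These were the other filters, the other variance estimates, the mean of probe sets, no sex term, 6 means, the 2 groups alone and the replicate block. The fold changes that changed sign, 12 in all, came from median centring, quantile normalization, the area as covariate or leaving out the 2 arrays of lowest area. They were Mutyh with PVP against control (-0.08 with median centring, -0.08 with quantile normalization, -0.04 with the exon over intron area as covariate, -0.02 without the 2 arrays of lowest area) and against citrate (-0.03 and -0.02 with the same normalizations), Apex1 and Polb with PVP (0.04 and 0.06 with the area as covariate), Xrcc1 with citrate (-0.02 with median centring, 0.00 with the area), Lig3 with citrate (0.00 with median centring) and Nthl1 in PVP against citrate (0.03 without the 2 arrays); the cause was not tested. With 1 array left out at a time, 10 of 324 fold changes changed sign: Neil1 with citrate ranged from -0.02 to 0.09, Xrcc1 with citrate from -0.02 to 0.04, Lig3 with citrate from -0.02 to 0.05, Mutyh with PVP from -0.01 to 0.05 and Polb with PVP from -0.21 to 0.04. Leaving out an array of the group outside a comparison cannot move the fold change of that comparison. The filter at the 60th percentile left out Mutyh and Neil2. Over all genes, 8 were called with PVP against control. Under the other settings this ran from 0 (quantile normalization, 6 means of group by sex, the 2 groups alone, without the 2 arrays of lowest area, replicate block) to 85 (60th percentile filter), and with 1 array left out from 1 to 61 (without PVP replicate 3).

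With the replicate number as a block, 0 members passed in each comparison (lowest adjusted p 0.699 with citrate and 0.256 with PVP, limma). Same-numbered mice deviated from the values fitted for their group and sex with correlations of -0.44 to 0.23. Those numbered 1 or 4 differ in sex between control and exposed groups. Correlations of differently numbered mice were not taken. These values therefore cannot show whether mice of the same number shared a litter or a cage.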
